A study of Mus musculus with 70 samples.

Results

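The genes described here encode the proteins of the cytosolic ribosome, followed in RENCA, a mouse renal carcinoma cell line, as it was passaged through BALB/c mice. Members were symbols on the array that begin with Rpl or Rps and a digit, together with Rpsa, Rplp0, Rplp1, Rplp2 and Rack1. Left out were symbols marked -ps as pseudogenes, names ending in the letter l and the S6 kinases. The rule found 82 genes among the 21159 symbols that have a probe. They are read by 169 probes, 30 genes have 1 probe, and the brightest probe stands for each gene. Of the 88 symbols that fit the rule in the RefSeq table, 6 had no probe. Rpl32p, Rps12l1, Rps3a2 and Rps3a3 of these are annotated as pseudogenes, while Rps27rt and Rpl37 are protein coding. The array name for Rpl37rt, a retrogene copy of Rpl37, may therefore hold reads of the parent gene, and its values were kept as uncertain. The rule also took in Rpl22l1 and Rpl7l1, paralogs of Rpl22 and Rpl7, Rps19bp1, a binding partner of Rps19, and Rps23rg1, a retrogene, which are no canonical subunits. The list was drawn by gene name and not by measured value, though earlier results of these data were known.

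All cells were RENCA carrying a stable GFP transgene and the hosts were female, immunocompetent BALB/c mice. The parental line before any mouse is called P0 (2 RNA samples). Cells placed under the kidney capsule and taken back from the kidney tumour gave the KPT lines, with 5, 2, 2, 3, 5 and 5 RNA samples at passages 1 to 6. Cells injected in the tail vein and taken from lung metastases gave the T-LM lines (5, 2, 3, 4, 6 and 4 samples). Cells placed under the kidney capsule and taken from lung metastases gave the K-LM lines (1, 1, 5, 3, 4 and 3 samples). Each explant was digested and grown in culture until GFP-negative cells were no longer seen, so a sample is a cultured line and every line descends from 1 parental culture. Where the labels do not tie samples to separate animals, p-values measure the spread between these samples. RNA was labelled with Cy5 on 1-colour Agilent arrays, with 70 arrays for 65 RNA samples on 9 slides.

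Between 25.2% and 55.2% of probes were well above background on an array, and no spot was saturated. Of the 82 members, 81 were well above background on all 70 arrays. Rps23rg1 was well above background on 65 arrays. The epithelial markers Pax8, Krt8 and Krt18 and the mesenchymal marker Vim were well above background on all 70 arrays. The renal and epithelial genes Pax2, Epcam and Cdh1 were so on 0, 5 and 6 arrays. Of the leukocyte markers used below, Csf1r, Cd68 and Itgam were so on all 70 arrays, those of the parental line included. Lyz2, Fcer1g, Tyrobp, Adgre1 and Ptprc were so on 67, 41, 39, 18 and 15 arrays. One slide was scanned on another day with other scanner software, and is called the late slide. It holds the 3 K-LM P6 samples and 5 arrays whose titles repeat those of 2 P0 and 3 KPT P6 samples with batch2 added. These were read as second arrays of the same RNA, which the labels do not state. On that reading they allow the effect of the slide on each gene to be measured. In bulk samples of this kind, fewer cells of a type and less RNA per cell cannot be told apart.

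The ribosome is built from a small subunit, whose proteins carry Rps names, and a large subunit, whose proteins carry Rpl names, around ribosomal RNA. Their mRNAs are short and among the most abundant in growing cells, and the proteins are made in matched amounts. Many of these mRNAs start with a run of pyrimidines, the 5′ terminal oligopyrimidine (TOP) tract, through which mTORC1 signalling and LARP1 control their translation. Some members have roles outside the ribosome, such as Rack1, a scaffold for kinase signalling, and Rpl5 and Rpl11, which bind Mdm2.

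RefSeq promoter sequence (build GRCm38.p6) was held for 62 of the 82 members. The letters CTTTC, a core of TOP tracts, were searched from 50 bases before to 30 bases after the annotated start. This window was chosen after several had been tried. On the gene's own strand they occurred in 26 of 62 members (41.9%) against 3248 of 27025 symbols (12%) in the table. On the opposite strand they occurred in 7 members (11.3%) against 11.1% of all symbols. Among the 68 mitochondrial ribosomal protein genes in the table, whose ribosome is a separate one, 8 (11.8%) held CTTTC on their own strand. The windows of some members named below are printed 5′ to 3′ with CTTTC in capitals. They are a selection and show no split between subunits and other members. The subunit genes Rps7, Rplp0, Rps28 and Rps24 had no CTTTC in the window, and the retrogene Rps23rg1 had it. Rpsa is at chr9:120127716-120127795 (+), Rpl15 at chr14:18270957-18271036 (-), Rpl13a at chr7:45128716-45128795 (-), Rack1 at chr11:48800310-48800389 (+), the downstream of 2 Rpl22 starts at chr4:152325676-152325755 (+), Rpl22l1 at chr3:28805458-28805537 (+), Rpl7l1 at chr17:46782627-46782706 (-) and Rps19bp1 at chr15:80264277-80264356 (-).
Rpsa: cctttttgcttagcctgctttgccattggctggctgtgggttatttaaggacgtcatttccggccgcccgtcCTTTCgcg
Rpl15: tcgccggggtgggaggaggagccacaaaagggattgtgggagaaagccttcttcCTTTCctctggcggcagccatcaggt
Rpl13a: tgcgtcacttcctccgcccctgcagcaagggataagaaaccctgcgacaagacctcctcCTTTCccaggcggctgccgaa
Rack1: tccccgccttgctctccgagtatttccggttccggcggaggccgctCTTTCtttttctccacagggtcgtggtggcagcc
Rpl22: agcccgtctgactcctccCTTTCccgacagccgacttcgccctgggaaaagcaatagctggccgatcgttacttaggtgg
Rpl22l1: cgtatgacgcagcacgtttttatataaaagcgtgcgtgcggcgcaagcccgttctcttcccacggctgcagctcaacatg
Rpl7l1: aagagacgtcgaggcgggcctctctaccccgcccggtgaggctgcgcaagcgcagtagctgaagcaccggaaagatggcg
Rps19bp1: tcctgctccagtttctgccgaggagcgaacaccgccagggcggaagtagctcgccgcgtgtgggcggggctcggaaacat

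The paralog Rpl22l1 had no CTTTC in its window whereas its partner Rpl22 had it at one of its starts. A match describes the letters in the window and does not show a start site in these cells. The 26 members with the letters had a median change of -0.35 from P5 to P6 in the T-LM lines, and the 36 without had -0.33.

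A level here is the log2 signal of a probe minus the array's 75th percentile over the 12209 probes well above background on every array. It compares samples for 1 probe and does not rank genes. The median of the 82 members lay between 3.12 and 4.60 over the 70 arrays. Over the 65 RNA samples, the SD of a member's level had a median of 0.32 and ran from 0.21 to 0.42. The 12209 commonly detected probes had a median SD of 0.38, with quartiles of 0.31 and 0.49, and 75 of the 82 members were under that median. These probes were not matched to the members for signal, as the median member lay above their 75th percentile on every array. The part of signal in the lower SD was not tested. Members rose and fell together. On the 62 arrays outside the late slide, the correlation of a member's level with the median of the other members had a median of 0.82 and was above 0.5 for 79 members, a value that includes whatever the arrays share in scaling.

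In the KPT lines the median member stood at 3.73 ± 0.24 (SD, n = 5) at P1, 4.00 ± 0.04 (n = 2) at P3, 3.61 ± 0.06 (n = 3) at P4, 3.93 ± 0.26 (n = 5) at P5 and 3.79 ± 0.18 (n = 5) at P6. In the T-LM lines it stood at 3.56 ± 0.24 (n = 5) at P1, 3.69 ± 0.12 (n = 4) at P4, 4.2 ± 0.28 (n = 6) at P5 and 3.87 ± 0.17 (n = 4) at P6. In the K-LM lines it stood at 3.96 ± 0.22 (n = 5) at P3, 3.70 ± 0.12 (n = 3) at P4, 4.09 ± 0.10 (n = 4) at P5 and, on the late slide, 3.51 ± 0.04 (n = 3) at P6. The parental line gave 3.75 and 4.07. In each route P4 was lower than P5, and the ranges of P4 and P5 overlapped in the KPT and T-LM lines but not in the K-LM lines. The median level of a list of very long mRNAs, whose signal falls where RNA is broken, went the other way in the K-LM and KPT lines. It was -3.52 to -2.81 at P4 and -5.21 to -3.90 at P5 in the K-LM lines, and -2.98 to -2.59 at P4 and -4.25 to -3.09 at P5 in the KPT lines, without overlap in either. In the T-LM lines it was -4.13 to -2.99 at P4 and -4.35 to -3.44 at P5, with overlap. Its part in the member levels was not tested.

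**Figure D1:**
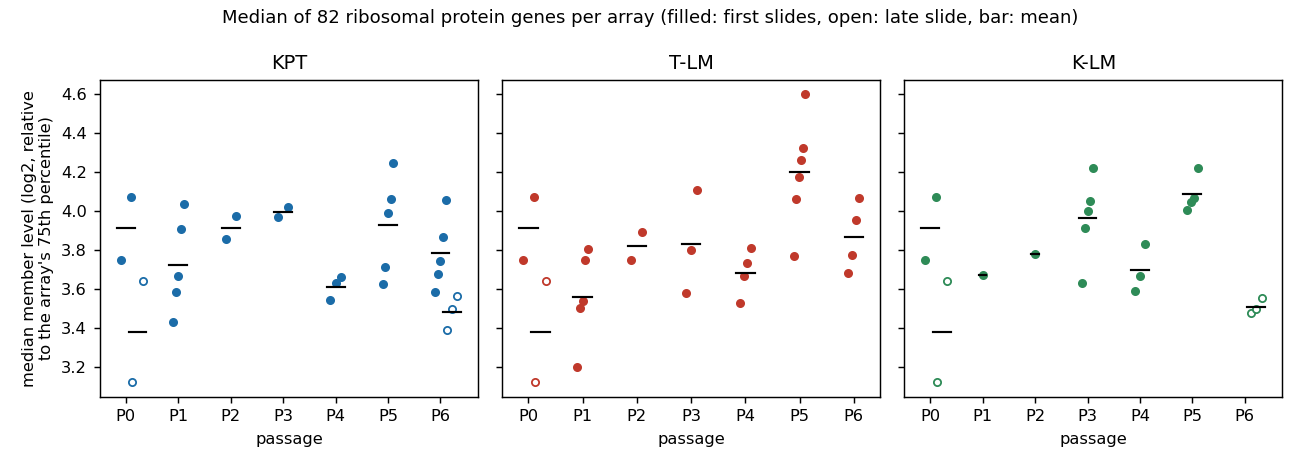
Median level of the 82 ribosomal protein genes on each array, by passage, for the KPT, T-LM and K-LM lines (P0 arrays are the same in each panel). Filled points are the first slides, open points the late slide and black bars group means. T-LM P5 reached 4.60, and all arrays of the late slide lay between 3.12 and 3.64.

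Slides differed in these genes as well as passages. The samples read as repeated gave lower member levels on the late slide in all 5 cases. The median member of P0 replicate 1 went from 3.75 to 3.12 and that of P0 replicate 2 from 4.07 to 3.64. KPT P6 replicates 1, 2 and 4 went from 4.06 to 3.57, from 3.87 to 3.5 and from 3.58 to 3.39. Of the 82 members, 64 were lower in all 5 RNA samples, against 14.6% of the 22390 probes tested. As a term in the limma fit of the K-LM lines with the repeated arrays, the late slide was lower for 52 of 82 members and higher for 0 at an adjusted p of 0.01 or less. The background for lower was 6.2% of 22390 probes. The median slide term was -0.39 for the members and -0.01 for all probes. In the fit of the P6 groups 29 of 82 members were lower and 0 higher, with a background of 4.84%.

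Rpsa, the laminin receptor protein of the small subunit, had the largest slide difference. Its level was 4.19 and 4.44 on the first arrays of the P0 samples and 2.76 and 3.45 on the late slide. Its slide term was -0.94 ± 0.11 (SE, limma adjusted p = 3.674e-06). Rplp0, which anchors the ribosomal stalk, had -0.81 ± 0.11 (limma adjusted p = 1.803e-05) and Rps24 of the small subunit -0.75 ± 0.10 (limma adjusted p = 9.877e-06). At the other end Rpl36a had 0.10 ± 0.11 (limma adjusted p = 0.65), Rps19 had -0.02 ± 0.08 (limma adjusted p = 0.92) and Rpl17 had -0.04 ± 0.10 (limma adjusted p = 0.85). Slide, scan day, scanner software and any new RNA preparation cannot be told apart here. All K-LM comparisons below carry the slide as a term, since K-LM P6 was measured on the late slide alone.

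**Figure D2:**
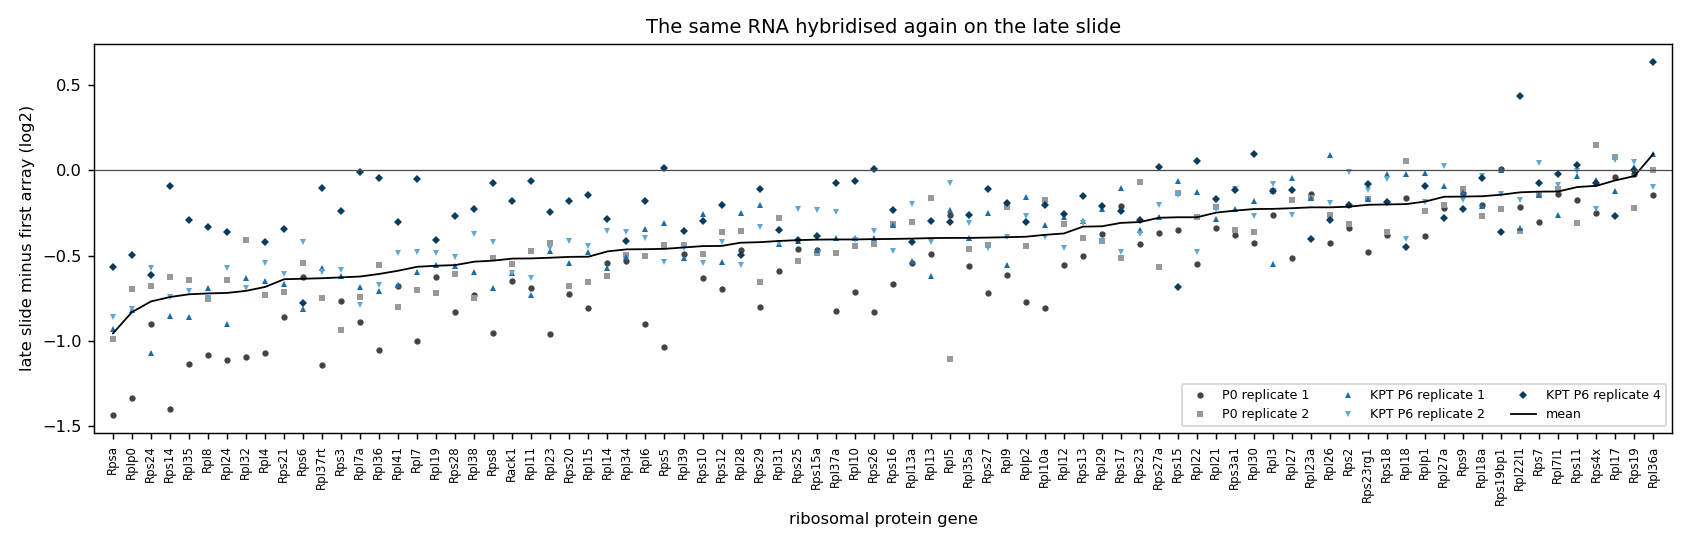
Late slide minus first array (log2) for each of the 82 genes, in 5 RNA samples read from their titles as hybridised on both, sorted by the mean (line). Rpsa is lowest at a mean of -0.96 and Rpl36a highest at 0.10.

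In the KPT lines no member passed the test from P0, P1, P3 or P5 to P6. From P0 to P6, 0 of 82 members were called by limma, with 1 at an unadjusted p under 0.05, against 3.8% of 20978 probes called. The median member change was -0.16 and 71 members were negative. Rpl7 (-0.41), Rpl37rt (-0.40) and Rps29 (-0.36) were lowest and Rpl17 (0.27), Rpl18 (0.22) and Rpl23a (0.18) highest, with limma adjusted p from 0.25 to 0.99 over the members. On the late slide alone, which holds both P0 samples and 3 KPT P6 samples, the median change was 0.11 and Rpl7, Rpl37rt and Rps29 had 0.09, 0.15 and 0.18, and the median was also positive with quantile normalisation (0.08) and with the authors' processed values (0.07), so this comparison has no settled direction. All 82 intervals (95%) lay within 1 log2 unit of 0.

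From P3 to P6 in the KPT lines the median member change was -0.28, with 80 of 82 negative, but its size rests on the scaling. It was -0.49 with the 75th percentile over all probes, -0.03 with quantile normalisation and -0.02 with the authors' processed values. Limma called 0 of 82 (11 at an unadjusted p under 0.05) against 0.787% of probes. Rps7, a small subunit protein, was lowest. It stood at 3.12 and 3.42 in the P3 samples and at 2.78, 2.38, 2.35, 2.42 and 2.22 in P6 replicates 1 to 5. The groups did not overlap, as in 24 of 82 members and 34.4% of all probes tested. The change was -0.84 (95% interval -1.30 to -0.37, limma adjusted p = 0.0359), short of the threshold. Rpl13a, a large subunit protein that also serves in interferon-driven translational silencing, was 3.28 and 3.52 at P3 and between 2.55 and 3.03 at P6, with a change of -0.69 (limma adjusted p = 0.12). Rps15 had -0.62 (limma adjusted p = 0.17). Rpl22l1 (0.11), Rpl22 (0.07) and Rps20 (-0.01) were highest. The 18 long mRNAs tested had a median change of 1.38 here with 18 of 18 positive, and its median level was -4.73 and -4.62 in the P3 samples and -4.10 to -2.81 at P6. The part of RNA quality in the member changes was not tested.

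From P5 to P6 in the KPT lines the median was -0.22 with 77 members negative, 0 of 82 called by limma (3 at an unadjusted p under 0.05) and 0.972% of probes called. The lowest were Rps23rg1 (-0.40), Rpl38 (-0.37) and Rpl8 (-0.35), and the highest Rps24 (0.11), Rpl31 (0.08) and Rpl14 (0.05). Each of 5 slides held 1 sample of both groups, and the median member difference within slides ran from -0.41 to -0.06. With the authors' processed values the median was -0.01. In the same comparison the long mRNAs had a median of 0.58 with 17 of 18 positive and the 8 leukocyte markers a median of -2.06 with 7 negative and 0 called. Their part in the member changes was not tested. From P1 to P6 the median was 0.04, with 0 of 82 called by limma (3 at an unadjusted p under 0.05) and 11.7% of 22029 probes called. Rpl22l1 was highest, and its partner Rpl22 came next. Rpl22l1 stood between 0.69 and 1.19 in the 5 P1 samples and at 1.97, 1.69, 1.70, 1.06 and 1.54 in P6 replicates 1 to 5, so that only P6 replicate 4 lay within the P1 range. Its change was 0.60 (95% interval 0.24 to 0.96, limma adjusted p = 0.0179), and without P6 replicate 4 it was 0.73, past the threshold. Rpl22 had 0.45 (limma adjusted p = 0.090) and Rpl36a 0.31 (limma adjusted p = 0.24). Rps23rg1 (-0.34), Rplp2 (-0.21) and Rpl8 (-0.18) were lowest. The long mRNAs had a median of -0.53 here with 19 of 19 negative and 6 called, and the 8 leukocyte markers a median of -2.01 with 7 negative and 0 called. Their part was not tested.

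In the T-LM lines the members were lower at P6 than at P5 and higher at P6 than at P1, in nearly all of the 82 genes, though none was called. From P5 to P6 the median change was -0.35, with 80 of 82 negative. Limma called 0 of 82 members against 13.3% of 21381 probes, and 35 members (42.7%) had an unadjusted p under 0.05 against 37.9% of probes. The size rests on the scaling. With the 75th percentile taken over all probes the median was -0.63 and 15 members were called, all lower, while quantile normalisation gave 0.06 and the authors' processed values 0.03, which turned the direction. The median of all probes was 0.11 in the same fit. Within the 4 slides that held 1 sample of both groups, the median member difference was -0.71, -0.61, -0.48 and -0.04. The long mRNAs had a median of 0.495 with 14 of 18 positive and 3 called higher (16.7%, against 13.3% of probes). Between 25.2% and 32.2% of probes were well above background on a P5 array and between 31.6% and 37.3% on a P6 array. The part of RNA quality in the member changes was not tested.

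Rplp2, one of the acidic stalk proteins that recruit elongation factors, came nearest to the threshold at -0.54 ± 0.15 (SE, limma adjusted p = 0.0116). Its P5 and P6 values did not overlap, as in 12 of 82 members and 20.6% of all probes tested. Rplp0 stood at 5.47, 5.19, 5.10, 4.97, 5.13 and 4.52 in P5 replicates 1 to 6 and at 4.36, 4.33, 4.26 and 4.80 in P6 replicates 1 to 4. Its change was -0.63 ± 0.18 (SE, limma adjusted p = 0.0166). P5 replicate 6 lay within the P6 range and the other P5 samples above it. The third stalk protein, Rplp1, had -0.47 ± 0.16 (SE, limma adjusted p = 0.0429).

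Rps28, a small subunit protein near the mRNA exit, was 5.42, 5.08, 5.07, 5.04, 5.25 and 4.36 at P5 and 4.62, 4.03, 4.27 and 4.62 at P6, with a change of -0.65 (95% interval -1.06 to -0.24, limma adjusted p = 0.0200). Rpl8 had -0.63 (limma adjusted p = 0.0322). Without P5 replicate 6, the sample whose members were lowest in its group, 7 members were called, all lower (Rpl23, Rpl24, Rpl8, Rplp0, Rps26, Rps28 and Rps29). The lowest fitted change was that of Rpl15, a large subunit protein, at -0.72 (95% interval -1.28 to -0.15, limma adjusted p = 0.0583). Its P6 values were 4.44, 3.88 and 2.96, the fourth array having no usable spot, and leaving out 1 sample moved the change between -1.06 and -0.32.

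In the levels used here, the 2 positive changes from P5 to P6 in the T-LM lines belonged to members that are not canonical subunits. Rpl22l1 and Rps23rg1, which are not canonical subunits either, were negative. Rps19bp1 was 0.23, 0.44, 0.17, 0.80, 0.46 and 0.83 at P5 and 1.00, 1.02, 0.64 and 0.76 at P6 (change 0.37, 95% interval 0.04 to 0.69, limma adjusted p = 0.0905). Rpl7l1 had 0.34 (95% interval 0.03 to 0.65, limma adjusted p = 0.0975). In Rps19bp1 and Rpl7l1 the groups overlapped, and neither was called. The subunit gene Rps13, the next highest, had -0.01. It had 0.35 with quantile normalisation and 0.24 in the authors' processed values, where the median member was also positive. In the same comparison all 4 lung epithelial markers were called higher by limma, and their mean level ran from -8.33 to -7.26 at P5 and from -5.62 to -3.71 at P6. Of 8 leukocyte markers 3 were called higher. The source of these marker signals and their part in the member changes were not tested.

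From P1 to P6 in the T-LM lines the median member change was 0.30 with 80 of 82 positive, and it was 0.51 with the 75th percentile over all probes. Limma called 0 of 82 (23 at an unadjusted p under 0.05, or 28.0%, against 32.6% of probes) and 9.08% of 23488 probes. Rps21, of the small subunit, was 1.09, 0.32, 1.05, 1.00 and 0.80 at P1 and 1.40, 1.32, 1.38 and 1.63 at P6. The groups did not overlap, as in 13 of 82 members and 20.8% of all probes tested, and the change was 0.58 (limma adjusted p = 0.11). Rpl12 had 0.57 (limma adjusted p = 0.0818) and Rpl34 0.52 (limma adjusted p = 0.0537). Rps9, outside the 3 highest and named after its value was seen, had the lowest adjusted p at 0.0395 with a change of 0.48. The lowest were Rps23rg1 (-0.44), Rpl15 (-0.17) and Rpl22l1 (0.02). Within the 3 slides that held both groups the median member difference was 0.47, 0.17 and 0.26. The long mRNAs had a median change of -0.83, with 19 of 19 negative, and all 4 lung epithelial markers were called higher. Their part in the member changes was not tested.

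From P0 to P6 in the T-LM lines the median was -0.07, with 51 members negative, 0 of 82 called by limma, 0 at an unadjusted p under 0.05, and 7.24% of probes called. Leaving out either P0 or a P6 sample moved the median between -0.25 and 0.07. Rpl15 (-0.59), Rpl37rt (-0.41) and Rpl7 (-0.39) were lowest and Rpl18 (0.35), Rpl17 (0.30) and Rpl23a (0.30) highest. Rpl17, Rpl18 and Rpl23a were also the 3 highest in the KPT lines from P0 to P6, where the same P0 samples were used. From P3 to P6 the median was -0.07, with 0 of 82 called by limma (1 at an unadjusted p under 0.05) and 7.05% of probes. Rpl15 (-0.53), Rps27 (-0.45) and Rps23rg1 (-0.43) were lowest and Rpl28 (0.23), Rps20 (0.19) and Rpl14 (0.18) highest.

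In the K-LM lines no member was called either once the slide term was in the fit. From P0 to P6 the median was 0.08, with 0 of 82 called by limma, 0 at an unadjusted p under 0.05 and 5.48% of probes called. On the late slide alone it was 0.15, with 72 of 82 members higher. It was -0.15 without P0 replicate 1 and 0.30 without P0 replicate 2. Rps23rg1 (0.44), Rpl19 (0.34) and Rps3 (0.32) were highest and Rps19bp1 (-0.26), Rpl7l1 (-0.20) and Rpl10a (-0.18) lowest. From P3 to P6 the median was -0.07, with 0 of 82 called by limma (5 at an unadjusted p under 0.05) and 5.91% of 22390 probes. Without the slide term the median was -0.49 and 3 members were called lower, Rpl10a, Rpl13a and Rpl17.

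Rpl17, a large subunit protein beside the exit tunnel, had the largest K-LM change from P3 to P6. It stood at 3.42, 3.46, 2.96, 3.97 and 4.13 in P3 replicates 1 to 5 and at 2.93, 2.76 and 2.92 at P6 on the late slide. The change was -0.68 (95% interval -1.13 to -0.23, limma adjusted p = 0.0340), and it was -0.84 and past the threshold without P3 replicate 3. Rpl17 was also a member with next to no slide difference, as given above. Rpl13a was 3.20, 3.18, 2.85, 3.98 and 3.67 at P3 and 2.23, 2.35 and 2.41 at P6, with a change of -0.67 (95% interval -1.19 to -0.15, limma adjusted p = 0.0652). Its level on the late slide was lower than on first arrays by 0.40 in the mean of the repeated samples. Rps7 had -0.43 (limma adjusted p = 0.18). Rpl4 (0.30), Rps20 (0.27) and Rps2 (0.24) were highest. The 18 long mRNAs had a median change of 1.37 with 18 of 18 positive, and their part was not tested.

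From P5 to P6 in the K-LM lines the median was -0.14, with 0 of 82 called by limma (3 at an unadjusted p under 0.05) and 1.48% of probes. Rpl17 was 3.5, 3.70, 3.39 and 3.69 at P5, all above its P6 values, with a change of -0.66 (95% interval -1.13 to -0.19, limma adjusted p = 0.0710). With K-LM P6 on the late slide, P5 and P6 did not overlap in 76 of 82 members and 49.3% of all probes tested. Rpl13a had -0.56 and Rpl9 -0.46, and Rps28 (0.10), Rpl30 (0.10) and Rps26 (0.08) were highest. The long mRNAs had a median of 1.54 with 18 of 18 positive and 3 called, and 3 of 8 leukocyte markers were called lower. Their part was not tested. Rps7, Rpl13a and Rpl17 thus held the low end where P6 was set against P3, the first 2 in the KPT lines and all 3 in the K-LM lines. In the T-LM lines the 3 lowest were others, Rpl15, Rps27 and Rps23rg1. The P3 and P6 samples differed between the routes. The slide term in the K-LM fit was estimated with P0 and KPT P6 arrays, however, so the KPT and K-LM comparisons are not independent.

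**Figure D3:**
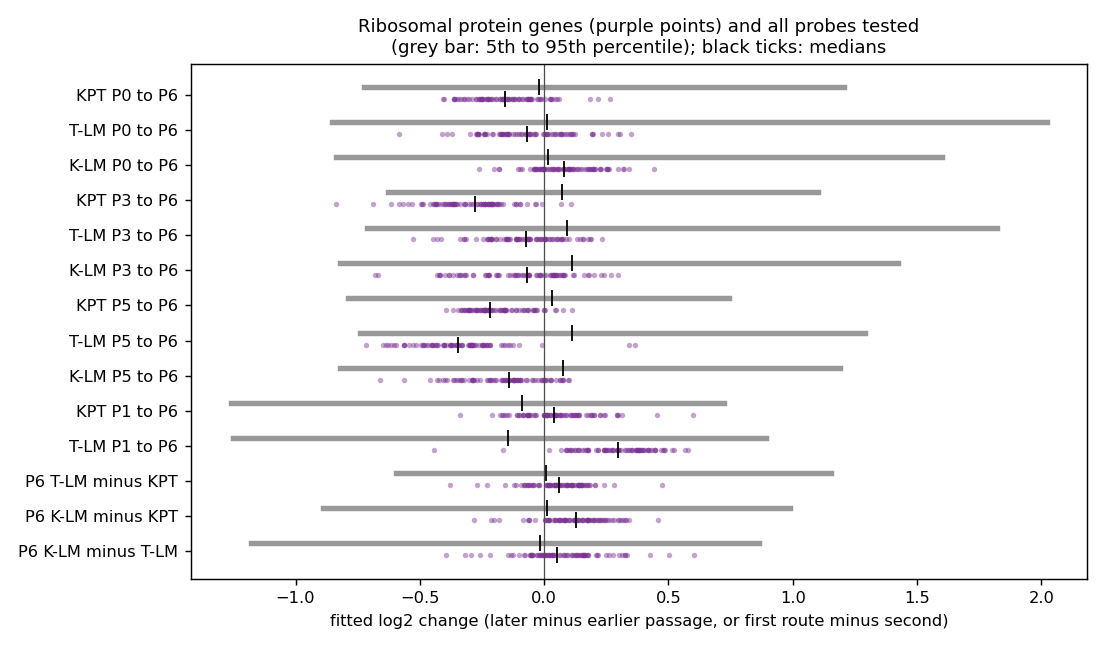
Fitted log2 changes of the 82 ribosomal protein genes (purple) in 14 comparisons, above each the 5th to 95th percentile of all probes tested (grey bar), with medians as black ticks. The members lie in a narrow band in each comparison, lowest in T-LM P5 to P6 (median -0.35) and highest in T-LM P1 to P6 (0.30).

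At P6, T-LM minus KPT had a median member difference of 0.06, with 0 of 82 called by limma (2 at an unadjusted p under 0.05) against 11.3% of 22072 probes, and 76 of the 82 intervals (95%) lay within 0.5 log2 units of 0. K-LM minus KPT had a median of 0.13, with 0 of 82 called (5 at an unadjusted p under 0.05) against 15.4%. K-LM minus T-LM had a median of 0.05, with 0 of 82 called (2 at an unadjusted p under 0.05) against 11.7%. The widest 95% bounds over all members and these 3 comparisons were -0.89 and 1.28. Markers listed for other cell types differed between the same groups, though some leukocyte markers were also detected in the parental line. In T-LM against KPT, 4 of 5 fibroblast, 4 of 8 leukocyte and 3 of 4 lung epithelial markers were called higher and 1 leukocyte marker lower. K-LM had 2 of 5 fibroblast markers called higher and 3 of 8 leukocyte markers lower than KPT, and 5 of 8 leukocyte markers lower than T-LM. Their part in the route differences, those of Rps7 and Rpl22 below included, was not tested.

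Rps7 was the member nearest to a call between routes. At P6 it stood between 2.22 and 2.78 on the 5 first KPT arrays and at 3.01, 2.98, 2.76 and 2.99 in T-LM replicates 1 to 4. KPT replicate 1 (2.78) lay within the T-LM range and the other KPT samples below it. The difference was 0.48 (95% interval 0.19 to 0.76, limma adjusted p = 0.0174). It passed the threshold with quantile normalisation (0.43), with the authors' processed values (0.42), without the slide term (0.50) and without KPT replicate 1 (0.56). For K-LM minus KPT, Rps7 had 0.34 (limma adjusted p = 0.11), behind Rps23rg1 (0.46, limma adjusted p = 0.0508) and ahead of Rplp1 (0.33). On the late slide Rps7 was 2.77, 2.67 and 2.72 in K-LM P6 and 2.64, 2.43 and 2.35 in KPT P6.

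The lowest for K-LM minus KPT were Rps19bp1 (-0.28), Rpl17 (-0.21) and Rpl10a (-0.20), and Rpl10a passed the threshold at -0.47 with quantile normalisation and at -0.49 in the authors' processed values. For T-LM minus KPT the highest after Rps7 were Rpl13a (0.28) and Rps15a (0.24), and the lowest Rpl15 (-0.38), Rps24 (-0.27) and Rpl22l1 (-0.23). For K-LM minus T-LM, Rpl15 (0.60), Rps23rg1 (0.50) and Rps24 (0.42) were highest and Rps19bp1 (-0.39), Rpl13a (-0.32) and Rpl7l1 (-0.29) lowest. The Rpl15 values rest on T-LM replicate 3. Without it, T-LM minus KPT was 0.02 and K-LM minus T-LM was 0.20.

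Rack1, Rpsa and the stalk proteins are given for each pair of routes at P6. For T-LM minus KPT, Rack1 had 0.08, Rpsa 0.02, Rplp0 -0.03, Rplp1 0.17 and Rplp2 0.15, each with an SE between 0.12 and 0.18. For K-LM minus KPT, Rack1 and Rplp2 had 0.12, Rplp0 0.13, Rpsa 0.30 and Rplp1 0.33, with an SE between 0.14 and 0.20. For K-LM minus T-LM the range was -0.03 (Rplp2) to 0.28 (Rpsa). None of them was called in the 14 comparisons as fitted.

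**Figure D4:**
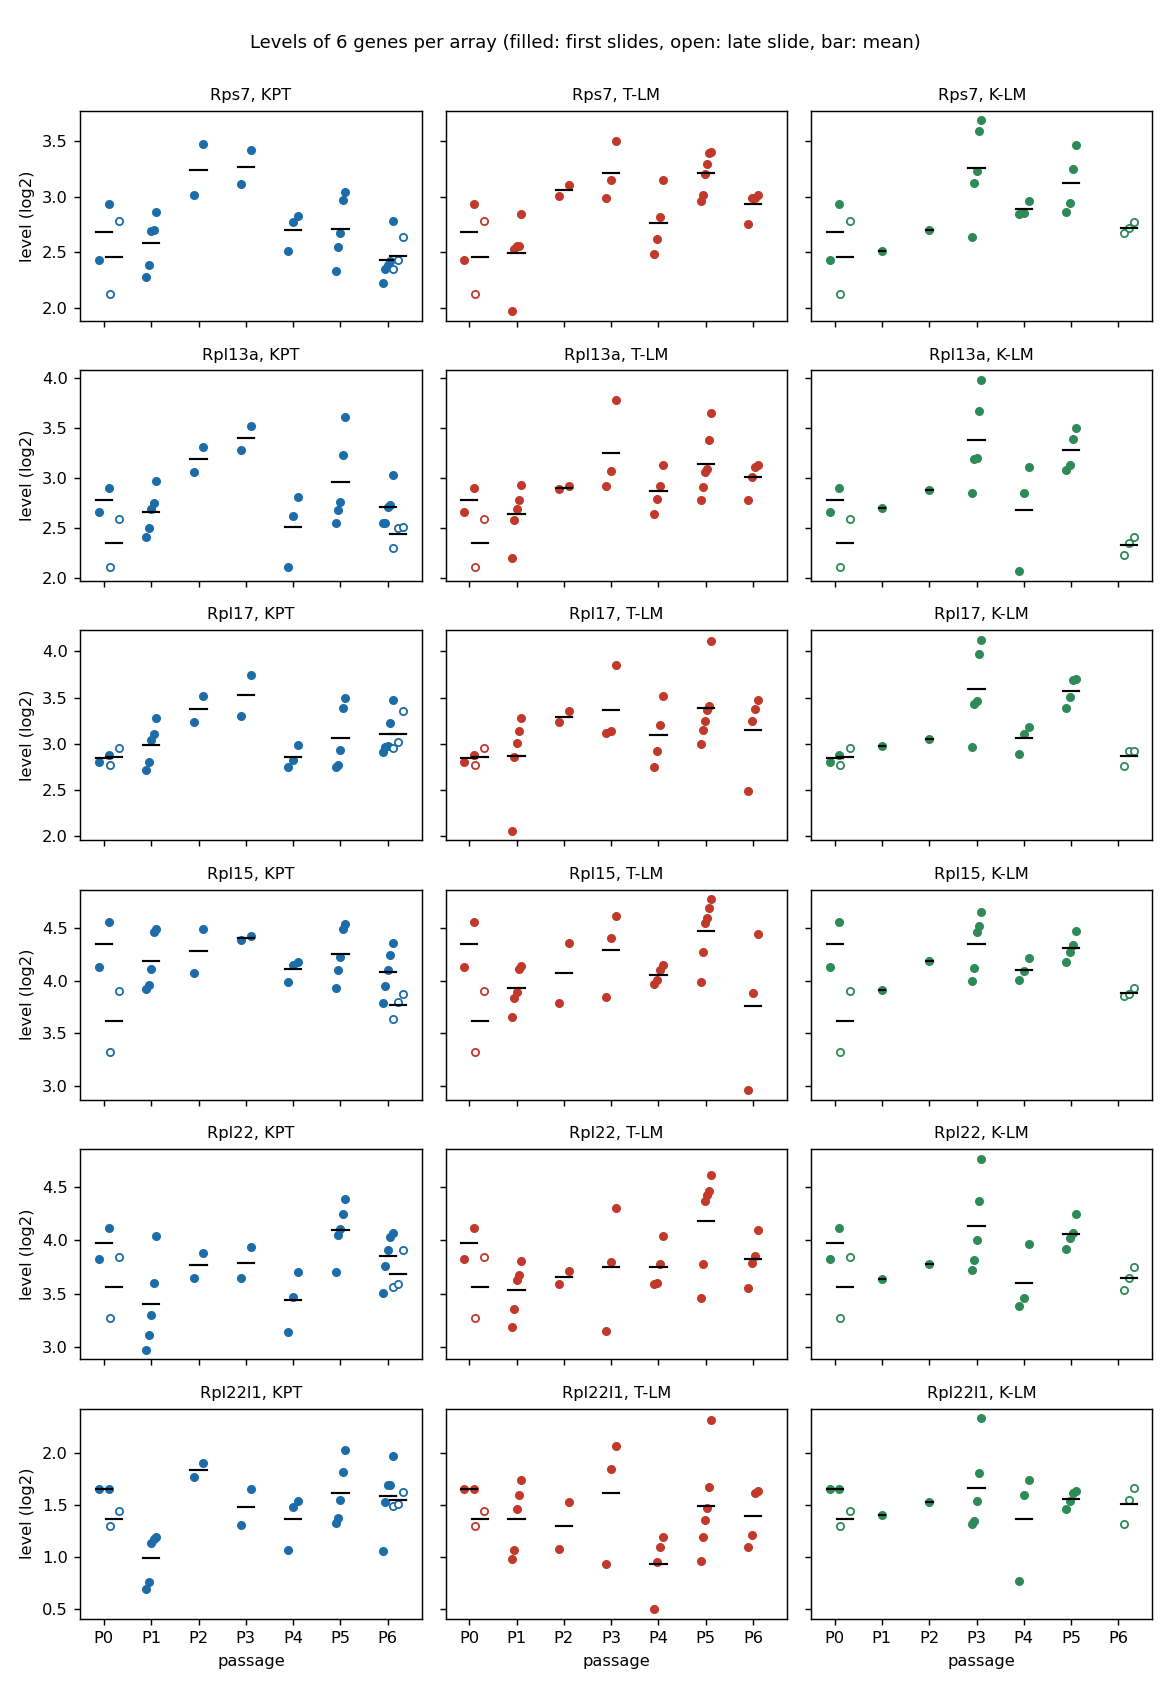
Level (log2, relative to the array's 75th percentile) of Rps7, Rpl13a, Rpl17, Rpl15, Rpl22 and Rpl22l1 on each array, by passage and route. Filled points are first slides, open points the late slide and bars group means. In the KPT lines the group means of Rps7 and Rpl13a were highest at P3 (3.27 and 3.40), and that of Rpl22l1 was lowest at P1 (samples from 0.69 to 1.19).

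To ask which members left the common course, the arrays were also centred on the median member. In the 9 comparisons from P0 and P3 to P6 and between routes at P6, limma called 0 of 82 members in each, with 0 to 4 at an unadjusted p under 0.05. In the 5 comparisons from P1 and P5 it also called 0, with 0 to 6 at an unadjusted p under 0.05, but with centring on the mean member 1 was called from P5 to P6 in the T-LM lines, Rpl7l1 (0.69, limma adjusted p = 0.009588). Over the 65 RNA samples, the SD of a member's level relative to the median member ran from 0.11 in Rps16 to 0.39 in Rps23rg1. The 10 largest were those of Rps23rg1 (0.39), Rps19bp1 (0.37), Rpl22l1 (0.32), Rps15 (0.31), Rpl36a (0.29), Rps21 (0.29), Rpl7l1 (0.28), Rpl18 (0.28), Rps7 (0.27) and Rpl17 (0.26). Of the 5 members whose names mark a retrogene, a paralog or a binding protein, 4 were among these. Their mean levels were low (Rps23rg1 -5.58, Rpl7l1 -3.29, Rps19bp1 0.72 and Rpl22l1 1.45), while Rpl37rt (4.34) was outside the 10. Low levels were also seen in Rps21 (1.31) and Rpl36a (2.26) among the 10, and in Rps4x (2.16) outside them. The part of signal level in the spread was not tested. Rps19bp1 was the 1 member whose level had a negative correlation with the median of the others (-0.06), and Rps23rg1 had 0.17, against 0.93 in Rps16.

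Relative to the median member, Rps19bp1 was at -3.71 in T-LM P5 and between -3.30 and -2.77 in every other group mean, and Rpl7l1 was at -7.68 in T-LM P5 against -7.35 to -6.72 elsewhere. Rpl22l1 was low in KPT P1 (-2.73), T-LM P4 (-2.75) and T-LM P5 (-2.70) and high in K-LM P6 (-2.0). Rpl36a, a large subunit protein with an X-linked gene, was highest in the 1 K-LM P2 sample (-1.04) and in K-LM P6 (-1.11). The late slide's median term was -0.39 over the members and 0.10 for Rpl36a, and its part in the K-LM P6 value was not tested. Rpl18 and Rpl17 were lowest in P0 (-0.96 and -1.07).

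**Figure D5:**
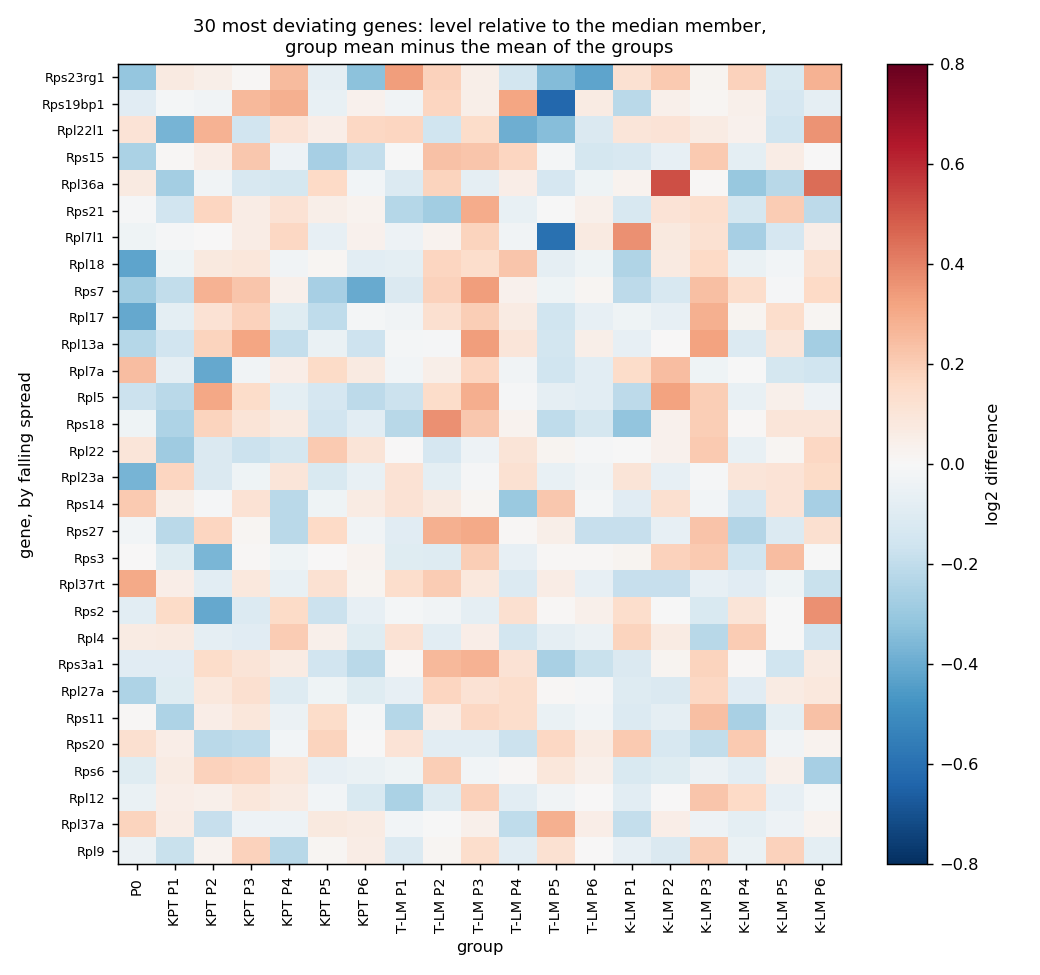
Level relative to the median member, as group mean minus the mean over groups (log2), for the 30 members with the largest spread; K-LM P6 was measured on the late slide. Rps19bp1 and Rpl7l1 are lowest in T-LM P5, and Rpl36a is high in K-LM P6.

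No member of the paralog pairs or of the pairs that share only a name was called in the 14 comparisons as fitted. From P1 to P6 in the KPT lines Rpl22 had 0.45 and Rpl22l1 0.60. From P5 to P6 in the T-LM lines Rpl7l1 had 0.34 and Rps27a -0.17, while Rps27, which shares a name but not a sequence origin with the ubiquitin fusion Rps27a, had -0.56. Rpl36, paired with Rpl36a by name only, had -0.40 there. The difference between partners was not tested.

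A second reading of Rpl22 differed from the first. The 2 probes of Rpl22 correlated at -0.23 over the 62 arrays outside the late slide, where 87 further probes of the members had a median of 0.77 with the brightest probe of their gene and 68 of them exceeded 0.5. The dimmer Rpl22 probe was at -2.84, -2.69, -2.53, -2.67 and -2.91 in KPT P6 replicates 1 to 5, at -3.44, -3.12, -3.42 and -3.58 in T-LM P6 and at -1.77, -1.70 and -2.0 in K-LM P6. The routes did not overlap. Among all probes tested, 15.9% did not overlap for T-LM against KPT, 36.2% for K-LM against KPT and 42.9% for K-LM against T-LM. It was called by limma in 7 of 14 comparisons, among them K-LM minus T-LM at P6 (1.47 ± 0.15, SE, adjusted p = 3.679e-06), T-LM minus KPT (-0.65 ± 0.11, SE, limma adjusted p = 0.0003605) and T-LM from P5 to P6 (-1.29 ± 0.17, SE, limma adjusted p = 5.127e-05). As plain differences of group means, a check chosen after the data had been seen, T-LM minus KPT was -0.66 in the levels, -0.78 with the 75th percentile over all probes and -0.69 in the authors' processed values, and T-LM from P5 to P6 was -1.29, -1.57 and -1.38. On the late slide K-LM minus KPT was between 0.83 and 0.85 on all 3 scales.

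The brightest Rpl22 probe gave 0.08, -0.06 and -0.36 in those comparisons, none called. Probe sequences were not used here, so whether the dimmer probe reads another Rpl22 transcript was not tested. It was singled out after its values had been seen. Other dimmer probes called were 1 of Rpl14 and 1 of Rpl17 from P1 to P6 in the KPT lines and 1 each of Rpl14, Rpsa, Rpl21 and Rpl22 from P1 to P6 in the T-LM lines, out of 83 and 84 tested.

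Genes for the assembly of ribosomes were called in comparisons in which no ribosomal protein gene was called by its brightest probe. Of 40 genes of ribosome biogenesis, limma called 16 higher and 0 lower from P5 to P6 in the T-LM lines, with a median of 0.69, against the members' -0.35. That is 40% of the list, where 13.3% of all probes were called. Pes1 (1.67 ± 0.34, SE, limma adjusted p = 0.001798) of the PeBoW complex and Dkc1 (1.61 ± 0.31, SE, limma adjusted p = 0.00129), the pseudouridine synthase of box H/ACA particles, were highest. Ubtf (-0.42) and Polr1a (-0.15), of RNA polymerase I transcription, were lowest and not called. From P1 to P6, 11 of 40 were higher in the T-LM lines (27.5%, against 9.08% of all probes called) and 8 of 40 in the KPT lines (20%, against 11.7%), led by Wdr12 (1.21 ± 0.18, SE, limma adjusted p = 5.64e-05) and Nop56 (1.00 ± 0.18, SE, limma adjusted p = 0.0005529). In a check added after the data had been seen, the list's median from P5 to P6 in the T-LM lines was 0.41 with the 75th percentile over all probes and 0.53 in the authors' processed values. On those scales the members' median was -0.63 and 0.03, so the members' direction was not settled.

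At P6 the K-LM lines were lower than the KPT lines in 15 of 40 biogenesis genes and higher in 0, with a median of -0.45 against the members' 0.13, and lower than the T-LM lines in 13 of 40. These are 37.5% and 32.5% of the list, where 15.4% and 11.7% of all probes were called. Nop56, a core protein of box C/D particles, had -1.13 ± 0.12 (SE, limma adjusted p = 4.548e-06) and Dkc1 -1.01 ± 0.20 (SE, limma adjusted p = 0.001025), while Eif6 (0.34) and Fbl (0.35) were highest and not called. Of 77 mitochondrial ribosomal protein genes tested, 15 were lower and 0 higher in K-LM than in KPT (19.5%, near the 15.4% of all probes called), among them Mrps9 (-0.75 ± 0.11, SE, limma adjusted p = 0.0001112) and Mrpl50 (-0.73 ± 0.12, SE, limma adjusted p = 0.0002112). From P1 to P6 in the KPT lines 14 were higher and 1 lower (19.5%, against 11.7% of all probes), Mrpl36 (0.83 ± 0.11, SE, limma adjusted p = 2.059e-05) and Mrps6 (0.88 ± 0.22, SE, limma adjusted p = 0.006294) leading and Mrpl38 lowest (-0.86 ± 0.21, SE, limma adjusted p = 0.006512).

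Of 22 translation factors and other TOP mRNAs, 1 was higher and 1 lower from P5 to P6 in the T-LM lines, Npm1 (0.67 ± 0.13, SE, limma adjusted p = 0.001561), a nucleolar chaperone, and Eif3f (-0.63 ± 0.15, SE, limma adjusted p = 0.005818), an initiation factor subunit. At 9.09% this share was below the 13.3% of all probes called. The list's median was -0.17. Eef2, the translocating elongation factor, had -0.64 (limma adjusted p = 0.0394). From P1 to P6 in the T-LM lines 3 of 22 were higher (13.6%, against 9.08% of all probes), with Npm1 (0.77) and Hnrnpa1 (0.74) the highest. Of 12 regulators of ribosomal protein synthesis tested, 2 were higher from P3 to P6 in the K-LM lines (16.7%, against 5.91% of all probes), among them Larp1 (1.67 ± 0.42, SE, limma adjusted p = 0.009262), the TOP-binding protein. The long mRNAs had a median of 1.37 in the same comparison with 18 of 18 positive, and their part was not tested.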

How the data were processed

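RNA of 65 samples was hybridised to 70 1-colour arrays. The authors deposited scanner tables with spot intensity (processed, median and local background signal), and a series table of log2 values. Those log2 values matched quantile-normalised log2 median signals to within 0.1066, and their unit and centring were read from that match. The scanner software versions stand in the deposited headers.

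Levels were log2 processed intensity minus the array's 75th percentile over probes well above background on all arrays. Control spots and spots with outlier flags were left out and spots of a probe were averaged. Members, lists and tests were chosen with earlier results of these data known. R 4.3.3 with limma 3.58.1 (lmFit, eBayes, Benjamini-Hochberg over all probes tested) was used, and a call is an adjusted p of 0.01 or less, as in the study. Probes had to be well above background on 2 arrays of a fit. A fit held all passages of a route (without P1, except from P1 to P6) or the P6 groups. The K-LM and P6 fits included the repeated arrays, with a fixed late-slide term, and arrays of the same RNA were blocked at random (duplicateCorrelation, statmod 1.5.0). The scripts were tested on simulated data. 1 T-LM P1 sample is labelled LOT1 in place of a number and was kept. Named were, per comparison, the 3 highest and 3 lowest members, and the 10 with the largest spread around the median member. Paralogs, pairs alike in name, Rack1, Rpsa and the stalk proteins were also named, and of other lists the 2 highest and 2 lowest genes. The number of arrays limits the precision. Of 55681 probes, 28039 had a gene name here. Leaving out members with saturated spots was not run, as there were 0.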

Additional observations from a re-analysis of the deposited data

Results flagged for a closer look

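Levels of the median member and of 11 members were examined for single samples apart from their group, in 106 groups of 4 to 6 samples, and 3 stood apart. About 1 in 20 groups would by chance. Rps7 was 2.76 in T-LM P6 replicate 3 against 2.98 to 3.01 in the other samples of its group. Rpl17 was 4.12 in T-LM P5 replicate 1 against 3.00 to 3.40. Rps28 was 4.36 in T-LM P5 replicate 6 against 5.04 to 5.42, and this sample also had the lowest median member of its group (3.77).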

How the results depend on the processing

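Of 275 counts of called members under the alternatives, 251 equalled the count reported, and of 275 medians 255 moved by less than the pooled SD of the median member (0.2). Background correction by normexp, no filter on dim probes and the replicate block each gave 0 members called in all 14 comparisons.

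With the 75th percentile over all probes the median member change was -0.487 from P3 to P6 in the KPT lines, and in the T-LM lines -0.299 from P0, -0.369 from P3, -0.628 from P5 and 0.506 from P1, and -0.278 from P3 in the K-LM lines, with 15 members called in T-LM from P5 and 1 in KPT from P1. Quantile normalisation gave medians of 0.078 (KPT from P0), -0.028 (KPT from P3) and 0.06 (T-LM from P5), with 1 member called in KPT from P1, 1 in T-LM minus KPT and 2 in K-LM minus KPT. The authors' processed values gave 0.072, -0.021, -0.006 (KPT from P5) and 0.03 (T-LM from P5), with 4, 1 and 1 called in the same comparisons. The late slide alone gave 0.107 for KPT from P0.

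Without the slide term the median was -0.486 (K-LM from P3, 3 called), -0.52 (K-LM from P5), -0.097 (K-LM minus KPT) and -0.29 (K-LM minus T-LM, 1 called), and 1 was called in T-LM minus KPT. The mean over all probes of a gene called 1 member in each of T-LM from P0, P5 and P1 and the 3 route comparisons, which was Rpl22 except from P1 (Rpl14). Other calls of 1 member came in T-LM from P5 with probes well above background on all arrays and with slide as a random block (Rplp2), and in K-LM from P5 with only the groups compared (Rpl17).

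Leaving out 1 sample gave 0 to 1 members called in KPT from P1 (Rpl22l1 without KPT P6 replicate 4), 0 to 7 in T-LM from P5 (7 without T-LM P5 replicate 6), 0 to 1 in K-LM from P3 (Rpl17 without K-LM P3 replicate 3) and 0 to 1 in T-LM minus KPT (Rps7 without KPT P6 replicate 1), and 0 elsewhere. The median ran from -0.151 to 0.296 in K-LM from P0, from -0.336 to 0.019 in KPT from P0, from -0.255 to 0.101 in T-LM from P3 and from -0.252 to 0.073 in T-LM from P0.

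Of 84 named changes 57 kept their sign under every alternative run. Reversed were Rpl7 (0.089), Rpl37rt (0.147) and Rps29 (0.177) in KPT from P0 on the late slide alone. In KPT from P3, Rps20 became 0.308 (quantile), 0.329 (authors' values) and 0.244 (replicate block), Rpl22 -0.141 (75th percentile over all probes) and -0.13 (mean over probes) and Rpl22l1 -0.101 (75th percentile over all probes). Rpl38 was 0.025 (authors' values) and Rps24 -0.056 (mean over probes) in KPT from P5, and Rpl8 0.065 (authors' values) in KPT from P1. In T-LM from P3, Rpl14 was -0.112, Rps20 -0.106 and Rpl28 -0.063 with the 75th percentile over all probes. Rps13 in T-LM from P5 was 0.348 (quantile) and 0.237 (authors' values). Rpl22l1 in T-LM from P1 was -0.007 (normexp), -0.035 (quantile), -0.054 (authors' values) and -0.09 (replicate block). Without the slide term, Rps20 (-0.227) and Rpl4 (-0.383) in K-LM from P3, Rps26 (-0.316), Rpl30 (-0.127) and Rps28 (-0.43) in K-LM from P5 and Rps24 (-0.313) in K-LM minus T-LM reversed. In K-LM from P5, Rps26 was -0.015 (normexp), -0.05 (75th percentile over all probes) and -0.049 (replicate block), Rpl30 -0.033 and Rps28 -0.025 (75th percentile over all probes). Rps24 in T-LM minus KPT was 0.064 (mean over probes).

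Leaving out 1 sample also reversed small changes: Rpl23a in KPT from P0 ran from -0.026 to 0.393, Rps20 in KPT from P3 ran from -0.265 to 0.246, Rpl22 in KPT from P3 ran from -0.078 to 0.214, Rpl22l1 in KPT from P3 ran from -0.063 to 0.279, Rpl14 in KPT from P5 ran from -0.068 to 0.197, Rpl31 in KPT from P5 ran from -0.017 to 0.178, Rps20 in T-LM from P3 ran from -0.061 to 0.438, Rps13 in T-LM from P5 ran from -0.098 to 0.087, Rpl15 in T-LM from P1 ran from -0.507 to 0.233, Rpl22l1 in T-LM from P1 ran from -0.075 to 0.12, Rpl10a in K-LM from P0 ran from -0.436 to 0.037, Rps26 in K-LM from P5 ran from -0.019 to 0.165 and Rpl15 in T-LM minus KPT ran from -0.718 to 0.022. The causes were not tested. Same-numbered samples of different passages deviated together (r over 0.1) in 10 of 23 KPT, 12 of 26 T-LM and 2 of 8 K-LM pairs, so the numbers were not taken to pair the samples. The few samples at P0 and KPT P3 (2 each) and the single slide of K-LM P6 limit these comparisons, and signal over background did not, as 81 members were well above background on all arrays.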
